A study of Mus musculus with 13 samples.

Results

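The genes described here encode the RNA exosome, the 3′-to-5′ RNA-degrading complex, and comprise Exosc1 to Exosc10, 10 of the 23235 gene rows of the deposited table. They were chosen by symbol, and all 10 passed the filter on low values, each with at least 1 in all 4 columns. The study separated mouse oocytes, with and without the RNA helicase MTR4, into nuclei and cytoplasms by micromanipulation, and sequenced their polyadenylated RNA with the low-input Smart-seq2 method from 10 nuclei or 10 cytoplasms per library. The labels list 13 libraries. MTR4-null nuclei and MTR4-null cytoplasms, both at day 21, have 2 libraries each. WT nuclei have 3 libraries at day 21 and 2 at day 14, and WT cytoplasms have 2 at each day. The table used here holds 1 column for each genotype and compartment, pooled by the authors, with no column for a library, and by its digits the MTR4-null cytoplasm column may hold 1 library rather than 2. No replicate spread could therefore be computed and no test was possible, so every difference below is a size without a replicate check. The WT columns name no day, so that genotype and age cannot be told apart in any comparison of MTR4-null with WT. The strain, and the promoter or Cre line behind the Mtr4 deletion, are not given in the sources used here.

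The exosome core is a ring of 6 proteins related to bacterial RNase PH (EXOSC4 to EXOSC9), closed on one face by a cap of 3 RNA-binding proteins (EXOSC1, EXOSC2 and EXOSC3). In mammals this core threads RNA but does not itself cut it, and degradation is carried out by bound nucleases, EXOSC10 in the nucleus and nucleolus and the DIS3 proteins. MTR4 is the nuclear helicase that unwinds RNA and feeds it into the complex, and the Ski complex does so in the cytoplasm. In mouse oocytes the complex is known for trimming and clearing RNA during growth.

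The values were deposited as FPKM by the table's name, a level per transcript length. The columns add to different totals and are not on 1 scale, so a value is called a score here. Scores of different genes were compared only within a column. Between columns, the median over genes of the ratio of a column to the 4-column geometric mean was divided out, and a relative log2 difference is taken on log2(divided score + 1), so that 0 stands for about the median gene. A difference of at least 2-fold on that scale is called higher or lower. In bulk RNA of this kind, fewer copies per cell and fewer cells with a transcript cannot be told apart. All 12 oocyte markers examined, among them Zp3, Gdf9 and Nlrp5, scored at least 1 in every column and made up 1.76% of the MTR4-null nuclear total, 1.92% of the WT nuclear total, 2.61% of the MTR4-null cytoplasmic total and 3.18% of the WT cytoplasmic total. The summed share of 14 granulosa cell markers was 0.00175% in MTR4-null nuclei, 0.00288% in WT nuclei, 0.00974% in MTR4-null cytoplasms and 0.00729% in WT cytoplasms. Their highest single score was 13.4 in MTR4-null nuclei and 6.79 in WT nuclei. In cytoplasms it was that of Inha, at 86.8 in MTR4-null and 253 in WT. Of those 14, 4 were listed at 0 in MTR4-null nuclei and 2 in WT nuclei, and none in either cytoplasm, and the part of such cells in the results below was not tested. Single markers of theca and stroma scored at most 4.96 in any column, and those of blood at most 1.36. Skiv2l2, which encodes MTR4, scored 3.54 in MTR4-null nuclei and 13.3 in WT nuclei, and 4.36 in MTR4-null cytoplasms and 187 in WT cytoplasms. These are relative log2 differences of -2.81 in nuclei and -4.03 in cytoplasms.

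Among the cap subunits, Exosc2 stood far from its partners. Exosc2, the RRP4 homologue, scored 2975 in MTR4-null nuclei and 486 in WT nuclei, and 4884 in MTR4-null cytoplasms and 178 in WT cytoplasms. It was high in 3 columns and low only in WT cytoplasms. Exosc1, the CSL4 homologue, scored 68.0 in MTR4-null nuclei and 34.3 in WT nuclei, and 199 in MTR4-null cytoplasms and 482 in WT cytoplasms. Exosc3, the RRP40 homologue, scored 87.1 in MTR4-null nuclei and 55.2 in WT nuclei, and 392 in MTR4-null cytoplasms and 854 in WT cytoplasms. Both of these had their highest deposited score in WT cytoplasms, the column in which Exosc2 had its lowest.

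The ring subunits are homologous to one another and are held in the complex once each. Exosc4, the RRP41 homologue, scored 111 in MTR4-null nuclei and 22.8 in WT nuclei, and 208 in MTR4-null cytoplasms and 847 in WT cytoplasms. Exosc5, the RRP46 homologue, scored 62.6 in MTR4-null nuclei and 24.3 in WT nuclei, and 136 in MTR4-null cytoplasms and 533 in WT cytoplasms. As deposited, both were more than 2-fold higher in MTR4-null nuclei than in WT nuclei, and lower in MTR4-null cytoplasms than in WT cytoplasms. The same held for Exosc7, at 2.28 times its WT score in nuclei and 0.366 times in cytoplasms. On that undivided scale, 46.3% of all genes that passed the filter were at least 2-fold higher in nuclei. In cytoplasms 43.7% of them were at least 2-fold lower. Exosc6, the MTR3 homologue, scored 42.2 in MTR4-null nuclei and 3.76 in WT nuclei, and 179.8 in MTR4-null cytoplasms and 30.9 in WT cytoplasms. It was the least abundant subunit in both WT columns, and the MTR4-null column was the higher one in each compartment. Exosc7, the RRP42 homologue, scored 178 in MTR4-null nuclei and 78.2 in WT nuclei, and 498 in MTR4-null cytoplasms and 1363 in WT cytoplasms. Exosc8, which encodes the ring subunit also named OIP2 or RRP43, scored 87.4 in MTR4-null nuclei and 65.2 in WT nuclei, and 247 in MTR4-null cytoplasms and 841 in WT cytoplasms. Exosc9, which encodes the ring subunit first described as the autoantigen PM/Scl-75, scored 19.5 in MTR4-null nuclei and 17.9 in WT nuclei, and 75.0 in MTR4-null cytoplasms and 454 in WT cytoplasms. Of these, Exosc7 was the most abundant in every column.

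Exosc10 encodes the RRP6 homologue, the nuclease that works with the core in the nucleus. Exosc10 scored 31.1 in MTR4-null nuclei and 26.2 in WT nuclei, and 51.8 in MTR4-null cytoplasms and 432 in WT cytoplasms. Its MTR4-null cytoplasmic score was 8.34-fold below its WT cytoplasmic score as deposited, the widest gap in that direction among the 10 genes.

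**Figure D1:**
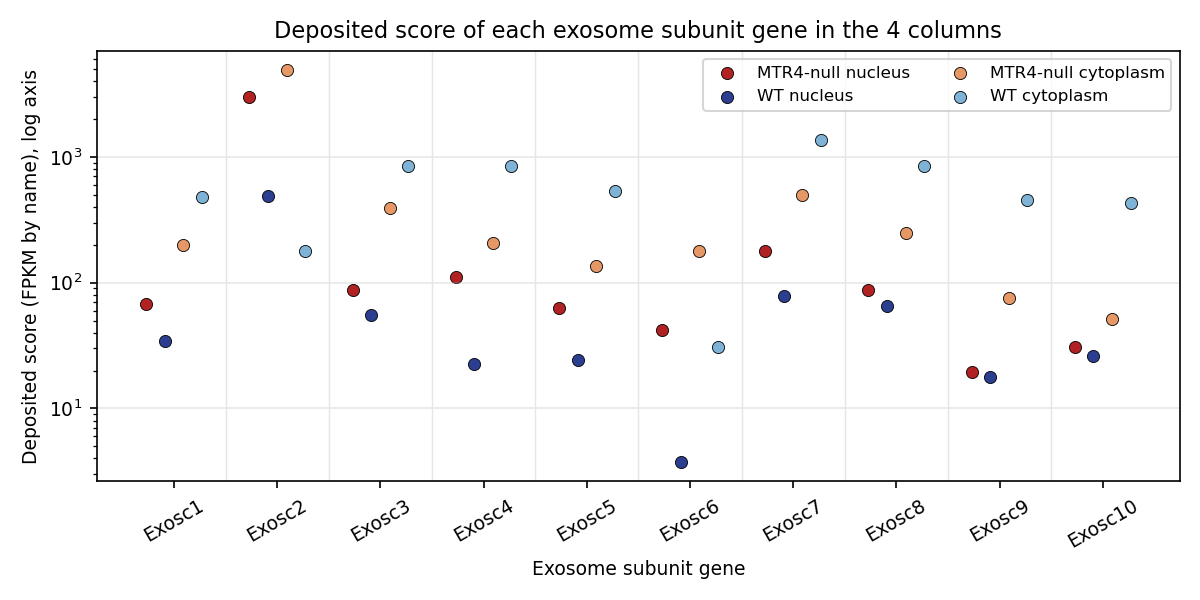
Deposited score of each exosome subunit gene (log axis) in the 4 pooled columns, 1 point per gene and column, with no replicates. Exosc2 sits above all other subunits in MTR4-null nuclei, WT nuclei and MTR4-null cytoplasms, at 2975, 486 and 4884, and near the bottom in WT cytoplasms, at 178.

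Because a factor applied to a whole column cancels within it, the mix of subunit transcripts can be read without any scaling. Exosc2 made up 81.2% of the summed score of the 10 genes in MTR4-null nuclei and 59.7% in WT nuclei, and 71.1% in MTR4-null cytoplasms and 2.96% in WT cytoplasms. It ranked first of 10 in the first 3 of these and 9 of 10 in WT cytoplasms. Its score was 16.7 times that of Exosc7 in MTR4-null nuclei and 6.21 times in WT nuclei, and 9.80 times in MTR4-null cytoplasms and 0.131 times in WT cytoplasms. Against all kept genes of its column, Exosc2 stood at percentile 99.5 in MTR4-null nuclei and 98.9 in WT nuclei, and at 99.5 in MTR4-null cytoplasms and 69.1 in WT cytoplasms.

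Of the other 9 genes, some held a near-constant share of their own sum and others did not. Exosc7 held 26.0% of their sum in MTR4-null nuclei and 23.9% in WT nuclei, and 25.1% in MTR4-null cytoplasms and 23.3% in WT cytoplasms. Exosc1 lay between 8.26% and 10.5% in every column. Exosc6 held 6.14% in MTR4-null nuclei and 1.15% in WT nuclei, and 9.05% in MTR4-null cytoplasms and 0.53% in WT cytoplasms. Its share was thus higher in MTR4-null than in WT in both compartments. Exosc10 held 4.52% in MTR4-null nuclei and 8.0% in WT nuclei, and 2.61% in MTR4-null cytoplasms and 7.40% in WT cytoplasms. Exosc9 held 2.84% in MTR4-null nuclei and 5.47% in WT nuclei, and 3.77% in MTR4-null cytoplasms and 7.78% in WT cytoplasms. Both had the lower share in MTR4-null in each compartment. So did Exosc8, with 12.7% and 19.9% in MTR4-null and WT nuclei, and 12.4% and 14.4% in MTR4-null and WT cytoplasms. Exosc4 went opposite ways in the compartments, with 16.1% in MTR4-null nuclei and 6.94% in WT nuclei, and 10.5% in MTR4-null cytoplasms and 14.5% in WT cytoplasms. In the same order, Exosc5 held 9.11%, 7.42%, 6.83% and 9.13%. Exosc3 was the reverse, lower in MTR4-null nuclei and higher in MTR4-null cytoplasms, with 12.7%, 16.8%, 19.7% and 14.6%.

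**Figure D2:**
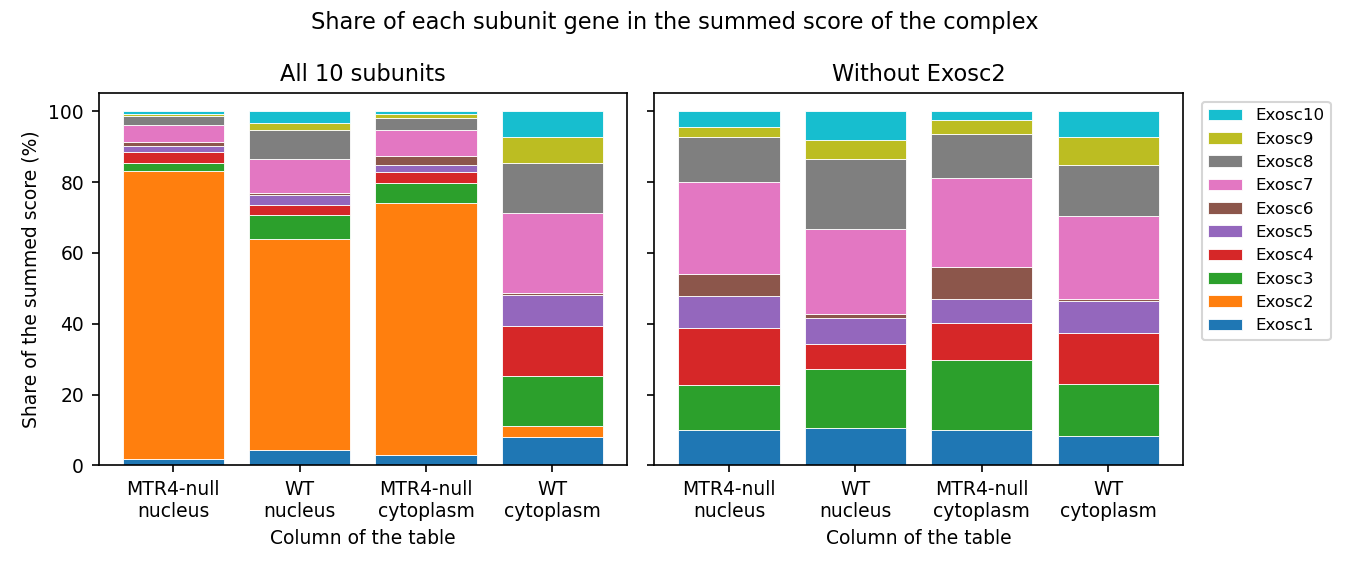
Share of the summed score of the exosome subunit genes held by each gene (percent, stacked to 100) in the 4 pooled columns, MTR4-null beside WT within each compartment. Exosc2 fills 81.2%, 59.7% and 71.1% of MTR4-null nuclei, WT nuclei and MTR4-null cytoplasms and 2.96% of WT cytoplasms.

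Within each column the order of the 10 genes by score ran from Exosc2 or Exosc7 at the top to Exosc6, Exosc9 or Exosc10 at the bottom. Exosc9 was the lowest in MTR4-null nuclei, Exosc6 in WT nuclei, Exosc10 in MTR4-null cytoplasms and Exosc6 in WT cytoplasms. With no replicates, whether neighbours in this order differ beyond their spread could not be assessed. The median percentile of the 10 genes among kept genes was 84.9 in MTR4-null nuclei and 80.4 in WT nuclei, and 82.7 in MTR4-null cytoplasms and 84.2 in WT cytoplasms.

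In nuclei, the comparison of MTR4-null with WT asks whether exosome transcripts differ where the helicase that feeds the exosome is lost. Exosc6, Exosc2 and Exosc4 were higher in MTR4-null nuclei, by relative log2 differences of 2.31, 1.52 and 1.18, and no subunit was lower by 2-fold. The 3 of 10 called higher compare with 25.8% of all 14240 kept genes called higher, and the 0 called lower with 16.2% of all kept genes, so the count of higher members lies near the background. The lowest were Exosc9 at -0.95 and Exosc10 at -0.84, followed by Exosc8 at -0.67 and Exosc3 at -0.43. Exosc1, Exosc5 and Exosc7 lay between -0.10 and 0.27. The median of the members was -0.0038, against 0.055 for all kept genes. As deposited, without the division, 5 members were higher and 0 lower, against 46.3% and 3.69% of kept genes. The nuclear call of Exosc6 held under all 8 alternative settings, at 1.46 to 3.18. Exosc2 was at 0.61 at its lowest and Exosc4 at 0.28, both short of 2-fold.

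In cytoplasms, Exosc2 and Exosc6 were again higher in MTR4-null than in WT, and 4 other subunits were lower. The relative log2 difference was 5.66 for Exosc2, a 50.5-fold higher level, and 3.31 for Exosc6, a 9.90-fold higher level. Exosc2 ranked 112 of 14240 kept genes by this difference and Exosc6 ranked 457. Exosc10 was lower by 4.33-fold, with a relative log2 difference of -2.12, and Exosc9 by 3.18-fold, with -1.67. Exosc4 had a difference of -1.11 and Exosc5 of -1.06. Exosc1, Exosc3, Exosc7 and Exosc8 lay between -0.86 and -0.22. Of all kept genes, 24.2% were called higher and 18.6% lower, against 2 and 4 of the 10 members. The median was -0.70 for the members, against 0.055 for all kept genes. As deposited, 2 members were higher and 8 lower, against 14.9% and 43.7% of kept genes. The calls of Exosc2, at 4.77 to 5.94, of Exosc6, at 2.50 to 3.50, of Exosc9, at -2.59 to -1.49, and of Exosc10, at -3.05 to -1.93, held under all 8 alternatives. Exosc4 and Exosc5 came as near as -0.83 and -0.87, short of 2-fold.

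**Figure D3:**
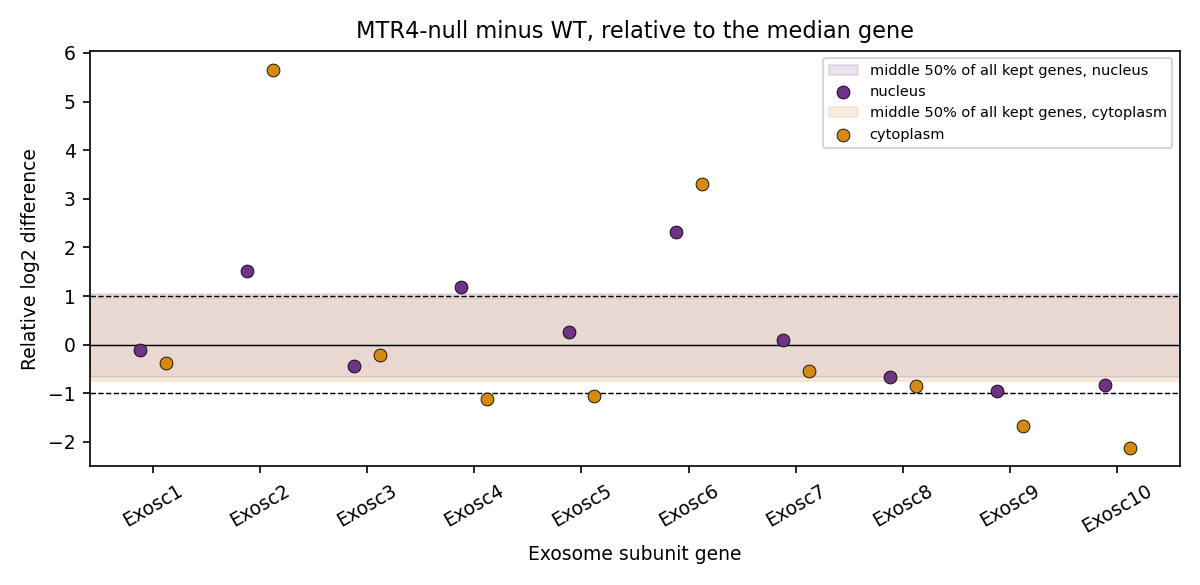
Relative log2 difference, MTR4-null minus WT, of each exosome subunit gene in nuclei and in cytoplasms, with dashed lines at the 2-fold call and shaded bands for the middle 50% of all kept genes. Exosc2 and Exosc6 lie above the upper line in both compartments, at 1.52 and 5.66 and at 2.31 and 3.31, and Exosc4 lies above it in nuclei, at 1.18, and below the lower one in cytoplasms, at -1.11.

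Within MTR4-null oocytes, no subunit differed by 2-fold between nucleus and cytoplasm relative to the median gene. The differences, nucleus minus cytoplasm, ran from -0.53 for Exosc3 to 0.92 for Exosc2, with Exosc10 at 0.88 and Exosc4 at 0.72. The background was 12.4% called higher in the nucleus and 8.83% lower. The median was 0.15 for the members, against -0.0086 for all kept genes. As deposited, 0 members were higher in the nucleus and 7 lower, against 2.91% and 71.9% of kept genes.

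In WT oocytes, Exosc2 was higher in the nucleus by a relative log2 difference of 5.06, a 33.3-fold higher level, and ranked 146 of 14240 kept genes by this difference. Exosc4 was lower in the nucleus by 2.97-fold, at -1.57, and Exosc9 by 2.02-fold, at -1.01. The other 7 lay between -0.81 for Exosc5 and 0.55 for Exosc6. The 1 member called higher and 2 called lower compare with 9.73% and 7.46% of all kept genes. The median was -0.36 for the members, against -0.10 for all kept genes. As deposited, Exosc2 was also the 1 member with a higher score in the nucleus, at 2.73 times its cytoplasmic score, while each of the other 9 had a cytoplasmic score 8.23 to 37.2 times its nuclear one. On that scale 1 member was called higher and 9 lower, against 1.74% and 91.2% of kept genes. The calls of Exosc2, at 1.44 to 5.11, and Exosc4, at -5.16 to -1.51, held under all 8 alternatives. Exosc9 came as near as -0.98.

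**Figure D4:**
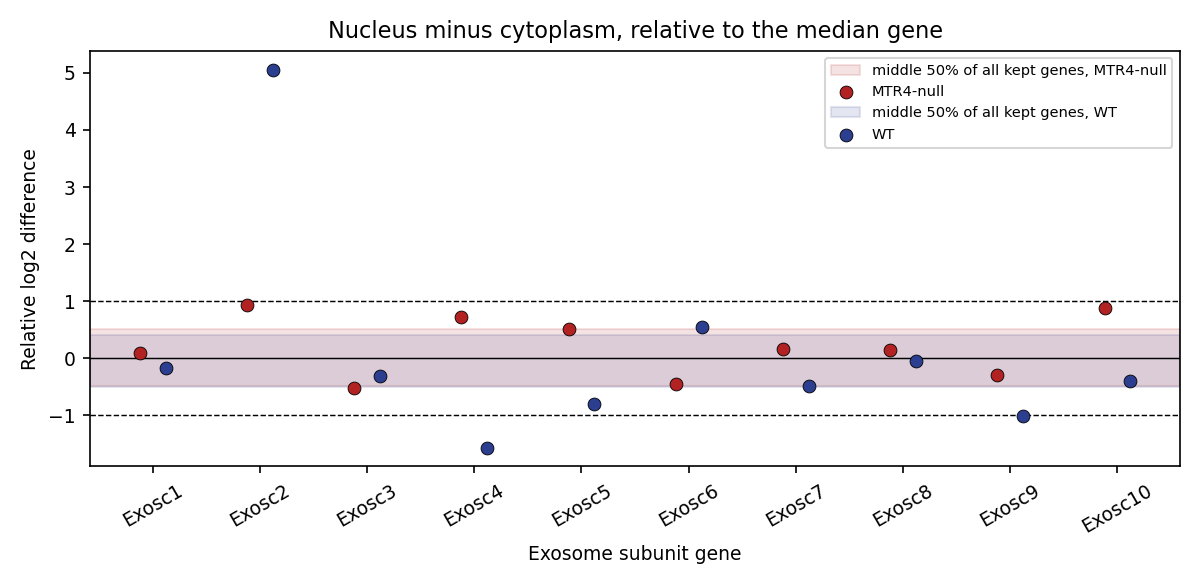
Relative log2 difference, nucleus minus cytoplasm, of each exosome subunit gene in MTR4-null and in WT oocytes, with dashed lines at the 2-fold call and shaded bands for the middle 50% of all kept genes. All MTR4-null points lie between the lines, while the WT point of Exosc2 lies at 5.06 and that of Exosc4 at -1.57.

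The nucleus minus cytoplasm difference itself was then compared between genotypes, MTR4-null minus WT, using all 4 columns. Exosc4 had the highest value at 2.29, followed by Exosc5 at 1.32 and Exosc10 at 1.28, so that these 3 were placed more to the nucleus, relative to the median gene, in MTR4-null than in WT oocytes. Exosc2 had the lowest at -4.14. The remaining 6 lay between -0.99 for Exosc6 and 0.72 for Exosc9. Of all kept genes, 16.9% were called higher and 15.3% lower, against 3 and 1 of the 10 members. The median was 0.45 for the members, against 0.073 for all kept genes. As deposited, 8 members were called higher and 1 lower, against 71.7% and 3.32% of kept genes. The calls of Exosc4, at 1.30 to 4.25, and Exosc2, at -5.16 to -2.16, held under all 8 alternatives, and those of Exosc5 and Exosc10 came as near 0 as 0.34 and 0.31. Exosc2 and Exosc4 therefore had opposite signs here. In both, the nuclear and the cytoplasmic relative level lay nearer to each other in MTR4-null than in WT oocytes.

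The annotated transcripts of the 10 genes were searched for 25-base windows that also occur in transcripts of at least 50 genes. Reads that do not reach beyond such shared sequence can match many genes. The search took no account of read length. Of 58 transcripts in GENCODE M21 on GRCm38, 6 held such a window, and a protein-coding transcript held one in Exosc1, Exosc2 and Exosc4. The deposited values were made on mm9, so these coordinates are those of the annotation and not of the files. The window of Exosc2 that most genes share lies in its 3′ UTR on chromosome 2, plus strand (chr2:31681200-31681224), at bases 1537 to 1561 of the 1686-base transcript, downstream of the coding region that ends at base 904. By its letters it is part of B2, a short interspersed repeat of rodents. It occurs in transcripts of 485 genes. The next 3 lines give this window, a window in an intron-retaining transcript of Exosc5 and the most shared window of Exosc4, in its 3′ UTR, each 5′ to 3′ along its transcript. They are shown because Exosc2 and Exosc4 had the largest nucleus minus cytoplasm differences in WT and the largest genotype differences of these, and because Exosc5 shares the Exosc2 stretch. Capitals mark bases shared in 1 long run with the Exosc2 window, on either strand. The longest run that the Exosc4 window shares with it is 5 bases and is not marked.
Exosc2 3′ UTR window: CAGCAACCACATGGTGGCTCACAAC
Exosc5 retained intron window: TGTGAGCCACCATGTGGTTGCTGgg
Exosc4 3′ UTR window: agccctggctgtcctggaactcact

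The Exosc5 window (chr7:25663707-25663731) carries 23 bases of the Exosc2 window on the opposite strand, and is not in a protein-coding transcript. A window in an intron-retaining transcript of Exosc9, not shown, carries 15 bases of the Exosc2 window on the same strand. The Exosc4 window (chr15:76330135-76330159) occurs in transcripts of 684 genes and belongs by its letters to the B1 repeat. Exosc3, Exosc6, Exosc7, Exosc8 and Exosc10 held no such window in any annotated transcript, nor did the other 5 transcripts of Exosc2.

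Other kept genes with the Exosc2 window in a transcript, on the same strand, numbered 292. Of these, 41.1% were called higher in MTR4-null than in WT cytoplasms, against 23.4% of the 12489 kept genes without it. In WT oocytes 31.8% of the carriers were called higher in the nucleus than in the cytoplasm, against 9.06% of genes without it. In MTR4-null oocytes these were 28.8% and 11.8%. Of the carriers, 40.8% were called higher in MTR4-null than in WT nuclei, against 24.9% of genes without it. Among the carriers and Exosc2 together, 293 genes, Exosc2 ranked 32 by the WT difference of nucleus and cytoplasm and 31 by the difference of MTR4-null and WT cytoplasms. These comparisons share columns and are given side by side only. The median score of the 292 carriers was 34.5 in MTR4-null nuclei and 14.8 in WT nuclei, against 12.8 and 4.95 without the window. In cytoplasms it was 91.7 in MTR4-null and 64.4 in WT, against 38.6 and 58.9. Whether this difference in level bears on the shares was not tested. For genes with the reverse complement of the window, 294 in number, 29.3% were higher in MTR4-null cytoplasms and 18.4% higher in the WT nucleus, nearer the share without it. The 405 other kept genes with the Exosc4 window were called higher in MTR4-null nuclei in 28.1% and lower in MTR4-null cytoplasms in 14.1%, against 25.3% and 18.5% of the 12782 kept genes with an annotated transcript. Whether reads from repeats elsewhere entered the score of Exosc2 was not tested, and the sources used here do not say how reads with several matches were placed.

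**Figure D5:**
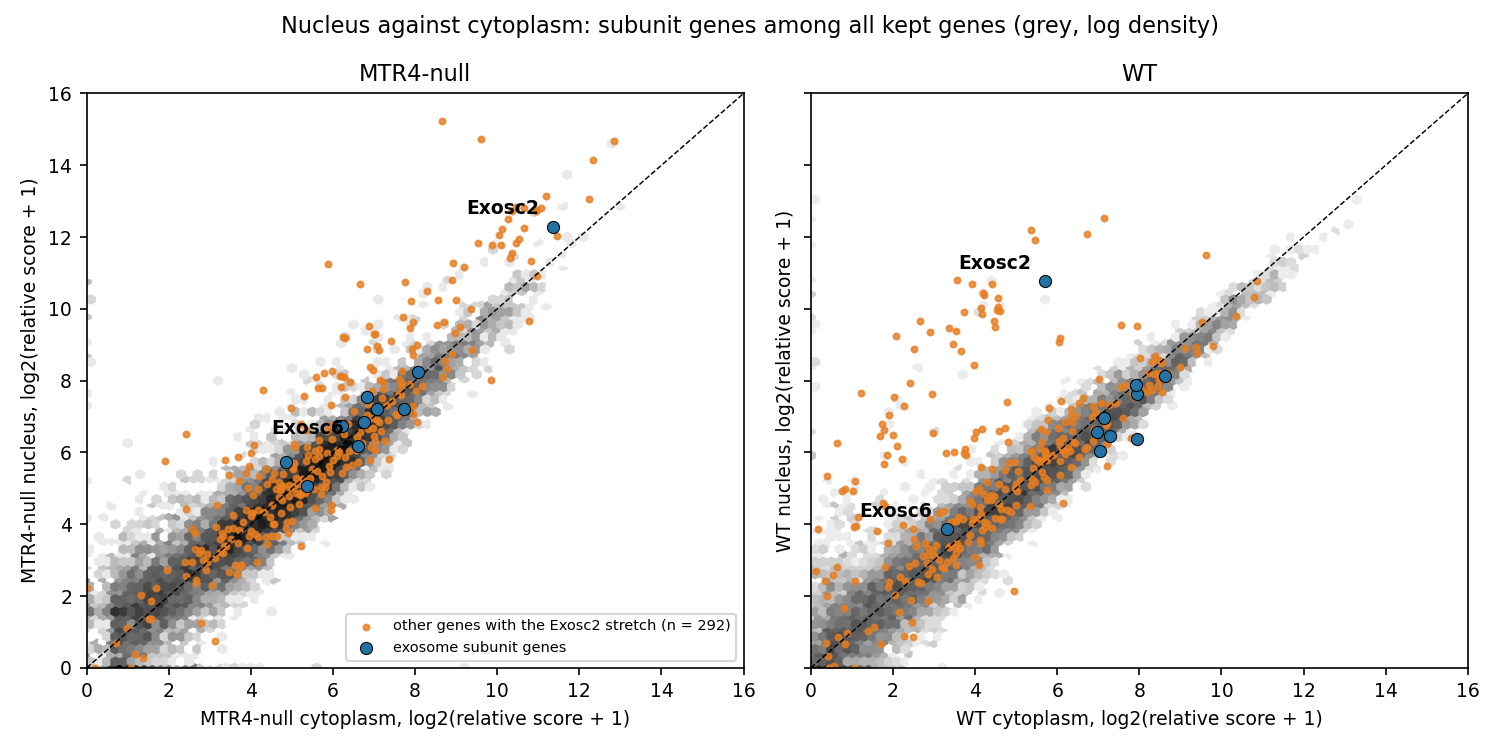
Nucleus (vertical) against cytoplasm (horizontal) level of each kept gene as log2(relative score + 1), MTR4-null on the left and WT on the right, with all kept genes in grey by log density, 292 other genes with the Exosc2 window in orange and exosome subunits in blue; 1 kept gene lies outside the axes. In WT, Exosc2 lies 5.06 above the diagonal among a scatter of orange points, and in MTR4-null it lies 0.92 above it.

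Shared exons limit other members. All 1326 exonic bases of Exosc6 in GENCODE M21 lie within an exon of Aars, the alanyl-tRNA synthetase gene, on the same strand of chromosome 8. Aars scored 23.7 in MTR4-null nuclei and 10.2 in WT nuclei, and 42.2 in MTR4-null cytoplasms and 143 in WT cytoplasms. Its relative log2 difference, MTR4-null minus WT, was 0.12 in nuclei and -0.82 in cytoplasms, neither called, while Exosc6 was higher in both. The values were made on mm9, and how reads of the pair were split between the genes is not known. The Exosc6 score is uncertain for that reason. Exosc9 shares 510 exonic bases, 10.8% of its own, with the cyclin gene Ccna2 on the opposite strand, which scored 67.7 in MTR4-null nuclei and 68.4 in WT nuclei, and 306 in MTR4-null cytoplasms and 743 in WT cytoplasms. Exosc4 shares 385 bases, 19.8%, with Oplah on the opposite strand, which scored at most 1.54 in any column. The sources used here do not say whether counting used strand.

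The nucleases and cofactors that bind the core, taken with the related nuclease gene Dis3l2, did not move as a block. Dis3, the core-bound nuclease of the nucleus, scored 3.05 in MTR4-null nuclei and 1.69 in WT nuclei, and 10.3 in MTR4-null cytoplasms and 26.0 in WT cytoplasms, relative log2 differences of -0.21 and -0.37. Dis3l, its cytoplasmic counterpart, scored 51.2 in MTR4-null nuclei and 65.7 in WT nuclei, and 91.9 in MTR4-null cytoplasms and 895 in WT cytoplasms, differences of -1.44 and -2.35. Its cytoplasmic difference lay near that of Exosc10. Dis3l2, a related nuclease that works without the exosome, scored 5.26 in MTR4-null nuclei and 2.24 in WT nuclei, and 15.2 in MTR4-null cytoplasms and 38.7 in WT cytoplasms, differences of 0.13 and -0.40. Mphosph6, which encodes the protein MPP6, known in human cells to tether MTR4 to the core, scored 1271 in MTR4-null nuclei and 1297 in WT nuclei, and 5780 in MTR4-null cytoplasms and 15142 in WT cytoplasms, differences of -1.12 and -0.48. C1d, which encodes the partner of EXOSC10, scored 7.01 in MTR4-null nuclei and 0.741 in WT nuclei, and 93.7 in MTR4-null cytoplasms and 26.5 in WT cytoplasms, differences of 1.80 and 2.58. Its WT nuclear score lies below 1, the limit of the filter, so its nuclear difference rests on a low value. The WT nuclear scores of Dis3, at 1.69, and Dis3l2, at 2.24, are low as well. Of these 5 genes, 1 was higher and 2 lower in nuclei and 1 higher and 1 lower in cytoplasms. Here and in the lists that follow, the shares of all kept genes were 25.8% higher and 16.2% lower in nuclei, and 24.2% higher and 18.6% lower in cytoplasms.

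Of MTR4 and its TRAMP, NEXT and PAXT partners, 13 genes, 3 were higher and 4 lower in MTR4-null nuclei, with a median of -0.17, and 4 were higher and 1 lower in MTR4-null cytoplasms, with a median of -0.09. Skiv2l2 was the lowest in both. Ncbp1, which encodes the large cap-binding subunit, was the highest in nuclei at 2.1, and Pabpn1, the nuclear poly(A)-binding protein gene, the highest in cytoplasms at 1.57. Of 5 genes of the Ski complex and its ribosome-rescue linkers, 3 were higher and 0 lower in nuclei, with a median of 1.08, and 3 were higher and 1 lower in cytoplasms, with a median of 1.30. Wdr61 was the highest in nuclei at 2.29, Pelo the highest in cytoplasms at 2.65, and Ttc37, the scaffold gene, the lowest in cytoplasms at -1.93. With 5 genes the Ski counts are small, and nothing was tested.

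The 20S proteasome core, another ring built from unlike subunits, served as a yardstick for how far subunit genes of 1 complex differ among themselves. Of its 14 genes, 1 was higher and 1 lower in MTR4-null nuclei and 0 were higher and 2 lower in MTR4-null cytoplasms. None was called between compartments in either genotype. Of all kept genes, 12.4% were higher and 8.83% lower in the nucleus in MTR4-null, and 9.73% and 7.46% in WT. The SD between genes of the MTR4-null minus WT difference was 1.10 for the 10 exosome genes and 0.57 for the proteasome in nuclei, and 2.44 and 0.54 in cytoplasms. Without Exosc2 the exosome SD was 1.06 in nuclei and 1.56 in cytoplasms. Without Exosc2 and Exosc6, whose score is uncertain, it was 0.70 and 0.65 over 8 genes, so that most of the gap to the proteasome rests on those genes. For nucleus minus cytoplasm in WT the SD was 1.84 for the exosome, 0.61 for its 9 genes without Exosc2, 0.50 for the 8 without Exosc2 and Exosc6, and 0.22 for the proteasome. In MTR4-null it was 0.53 for the exosome, 0.50 without Exosc2, 0.48 without both and 0.28 for the proteasome. These are spreads between genes, not between replicates, and the difference between the complexes was not tested. In WT, the proteasome genes also ran to higher scores, 73.4 to 649 in nuclei and 1098 to 11375 in cytoplasms. The exosome genes without Exosc2 scored 3.76 to 78.2 and 30.9 to 1363 there. Whether this difference in level bears on the spreads was not tested.

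The 3 kept genes outside the family whose pattern lay nearest the members' median, by Euclidean distance between log2 profiles over the 4 columns, each centred on its own mean, were Tesk2 at 0.0681, Rps6ka3 at 0.0681 and 2410001C21Rik at 0.0693. Distances of the members from their own median profile were 5.53 for Exosc2, 3.27 for Exosc6 and 0.17 to 1.21 for the other 8, with Exosc7 the nearest. Exosc2 had its own nearest gene in Bloc1s3, at a distance of 0.211, which scored 373 in MTR4-null nuclei and 60.4 in WT nuclei, and 534 in MTR4-null cytoplasms and 20.9 in WT cytoplasms. B230208H11Rik at 0.416 and Chrna1 at 0.449 came next. These genes were not among the 292 other kept genes found with the Exosc2 window on the same strand. Whether the window has a part in the pattern was not tested.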

How the data were processed

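Per the labels, libraries were made with Smart-seq2 from 10 nuclei or cytoplasms each. Per the submitters' processing notes, the tools were Cufflinks 2.2.1 and TopHat2 2.1.1 and the build mm9; roles and settings are not stated there. The authors deposited 1 pooled column per genotype and compartment, named FPKM. Column totals differ and the digits show an unstated extra division, so each deposited value was used as a score. A test over libraries (limma) had been planned and was not possible with pooled columns; depth per library is unknown.

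Genes with a score of at least 1 in at least 2 of 4 columns were kept (14240). Each column was divided by the median of its ratios to the 4-column geometric mean, over the 13328 kept genes above 0 in every column, giving divisors of 0.594 for MTR4-null nuclei, 0.279 for WT nuclei, 1.85 for MTR4-null cytoplasms and 3.47 for WT cytoplasms, and log2(value + 1) was taken. Python 3.11.15, pandas 2.3.3, numpy 2.4.6 and matplotlib 3.10.9 were used, and the steps were tested on simulated data. Named genes are the 10 members, core-bound nucleases and cofactors with Dis3l2, the highest and lowest of each list and the 3 nearest genes. The nearest genes of Exosc2 and the genes that overlap members were named after their values were seen. Members and lists were chosen with earlier results of these data known. Alternatives changed the scaling, pseudocount, filter, fold and members.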

Additional observations from a re-analysis of the deposited data

Results flagged for a closer look

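Exosc4 was the 1 subunit called in opposite directions in the compartments. Its relative log2 difference, MTR4-null minus WT, was 1.18 in nuclei and -1.11 in cytoplasms. The nuclear call was lost when factors read from the digits were divided out, in both forms tried, at 0.28, and the cytoplasmic call under quantile normalization and when a score of 1 in all 4 columns was required, at -0.83 at its nearest to 0. The pair of calls thus held under 4 of 8 alternatives. Each value rests on 1 pooled column per genotype, and the difference between the compartments was not tested.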

How the results depend on the processing

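No paired analysis was possible because the columns are pooled and carry no replicate numbers, and for the same reason no replicate could be left out. Of 16 member differences called at 2-fold, 9 kept their call under every one of 8 alternatives of scaling, pseudocount and filter, and none reversed. Counts of members that moved by over 1.5 times follow (smaller shifts, of 1 member each, are not listed). The share of all kept genes is in brackets where the scaling, pseudocount, filter or fold changed it. The comparisons are nuclei (MTR4-null minus WT), cytoplasms (same), nucleus minus cytoplasm in MTR4-null, the same in WT, and the genotype difference of these. As deposited, 5 were higher in nuclei (46.3%), 8 lower in cytoplasms (43.7%), 7 lower within MTR4-null (71.9%), 9 lower within WT (91.2%) and 8 higher in the genotype difference (71.7%); the median of all kept genes was then 0.91, -0.79, -1.48, -3.27 and 1.70. Quantile normalization gave 1 lower in nuclei (21.5%), 2 lower in cytoplasms (22.5%), 1 higher within MTR4-null (12.3%) and 1 lower within WT (9.77%). Dividing out the factors read from the digits gave 1 higher (15.4%) and 5 lower (43.2%) in nuclei, 7 lower within MTR4-null (74.2%), 5 lower within WT (34.3%), and 1 higher (5.51%) and 3 lower (45.3%) in the genotype difference, with medians of all kept genes of -0.77, 0.15, -1.56, -0.71 and -0.87. With the WT cytoplasm factor at 0.5, an alternative chosen after seeing the data, 1 was higher and 5 lower in nuclei, 8 lower in cytoplasms (44.4%), 7 lower within MTR4-null, 9 lower within WT (76.4%) and 2 lower in the genotype difference (17.5%), and the median of all kept genes was -0.81 in cytoplasms, -1.67 within WT and 0.07 in the genotype difference. A pseudocount of 0.1 gave 2 lower in the genotype difference (19.3%). Requiring 1 in all 4 columns gave 2 lower in cytoplasms (16.7%) and 1 lower within WT (4.72%). Calling at 1.5-fold gave 3 lower in nuclei (27.6%) and 3 higher within MTR4-null (22.3%). In the genotype difference it gave 5 higher (29.97%) and 2 lower (25.7%). Without Exosc2, also chosen after seeing the data, 1 was higher in cytoplasms, 0 higher within WT and 0 lower in the genotype difference. Without Exosc2 and Exosc6, chosen likewise, 1 was higher in nuclei, 0 in cytoplasms and 0 within WT, and 0 were lower in the genotype difference. The cause of these shifts was not tested beyond what each setting changes.

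The highest member's share of the summed score was 81.2% in MTR4-null nuclei, 59.7% in WT nuclei, 71.1% in MTR4-null cytoplasms and 22.7% in WT cytoplasms. With the highest member left out it was 26.0%, 23.9%, 25.1% and 18.4% in the same order, and without Exosc2 26.0%, 23.9% and 25.1% in the first 3. Adding 1 to each score gave 59.1% in WT nuclei. Ranked among all genes of the table, the members' median percentile was 90.6 in MTR4-null nuclei, 87.8 in WT nuclei, 89.4 in MTR4-null cytoplasms and 90.3 in WT cytoplasms.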
